A study of Arabidopsis thaliana with 111 samples.

Results

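Early germination was followed here in the excised radicle with the embryonic axis (RAD) of Arabidopsis thaliana seeds, by setting 4 arrays at 7 h after sowing (7 h) against 4 arrays at 3 h after sowing (3 h). These 8 arrays were taken by their titles and form 2 of the 28 groups of the series, each of 3 or 4 arrays. Both groups came from seeds of accession Columbia-0 (stock N60000), with no mutation or treatment in the labels, germinated on water with 0.7% agarose at 22 °C in continuous light. The study dissected seeds into 4 parts over the whole of germination and hybridised each sample to an Affymetrix array. The endosperm of the micropylar and chalazal ends (MCE) at the same times, again 4 arrays each, is used below for 1 comparison, and RAD at 1 h and 12 h for levels only. RAD is not the radicle alone, because the axis was taken with it. In such bulk samples fewer cells of a type and less RNA per cell cannot be told apart.

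A dry seed holds messenger RNAs that were stored while it matured, and after water uptake these decay while new transcripts are made. Gibberellin promotes germination: GID1 receptors bind it and then trigger the loss of DELLA proteins, which are repressors of growth. Abscisic acid opposes it: PYR/PYL receptors bind this hormone and block protein phosphatases, which frees kinases that act on transcription factors such as ABI5. Growth of the axis starts by cell elongation, for which expansins and xyloglucan endotransglucosylase/hydrolases (XTH proteins) loosen and rebuild the cell wall.

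Each array gave 1 log2 value for each of 21313 loci, where a difference of 1 is a 2-fold change, and the medians of the 8 arrays lay between 4.76 and 4.95. Levels are log2 values, listed for replicates 1 to 4 in that order, and a difference is the mean at 7 h minus the mean at 3 h with its standard error from limma. A gene is said to have risen or fallen where its Benjamini-Hochberg adjusted p over all loci was under 0.05 and its difference was at least 1 in size. Among the called genes that the naming rule picked, 152 of 164, the largest adjusted p was 0.000239, so adjusted p values are printed below for calls only where they add something. Levels under 4.03, a level that 25% of the loci did not reach in the mean of any group, are near background, and differences that start or end there have no exact size. The sources used here do not give how probes were assigned to loci, so signals of close homologues may not be fully separate.

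RAD at 7 h replicate 3, which the labels describe as redone after quality control, stood apart from the other 3 arrays at 7 h. Its correlation with them over all loci was 0.980 to 0.985, against 0.991 to 0.994 among those 3. Each array was also placed between the 2 times over the genes called without it, with 0 at the mean of the other 3 h arrays and 1 at that of the other 7 h arrays. Replicate 3 at 7 h had a median position of 0.790, and the others at 7 h had 1.067, 1.018 and 1.053. At 3 h the positions were -0.024, 0.137, 0.022 and -0.067, so replicate 2 lay slightly toward 7 h. Replicate 3 was the nearest of the 4 arrays to the 3 h mean for 62.8% of the 2939 called genes. Leaving it out raised the number of calls to 3200, of which 2846 were shared with the full set in the same direction. Values below include this array, and its own value is printed for the main genes.

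**Figure D1:**
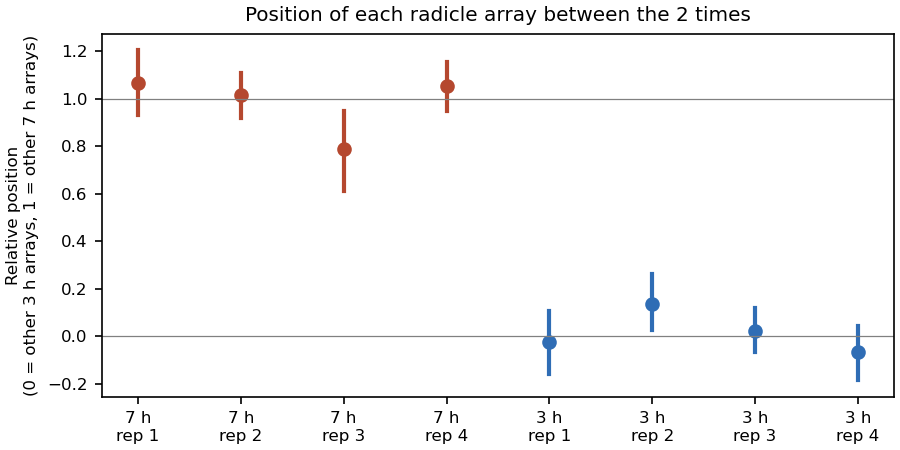
Position of each RAD array between the 2 times, as the median (point) and quartiles (bar) over the genes called without that array, where 0 is the mean of the other 3 h arrays and 1 that of the other 7 h arrays; 7 h arrays are on the left in red. Replicate 3 at 7 h has a median of 0.790, the other 7 h arrays lie between 1.018 and 1.067, and the 3 h arrays between -0.067 and 0.137.

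In all, 2939 genes were called, 13.8% of those measured, with 1545 higher at 7 h (7.25%) and 1394 lower (6.54%). Decreases were more often large. A change of at least 2 on the log2 scale was reached by 266 of the higher and 363 of the lower genes, and a change of at least 4 by 23 and 29. The 4 values at 7 h lay all above or all below the 4 at 3 h for 33.7% of all loci. The median difference over all loci was -0.007. An added scaling of the arrays on the more abundant loci moved that median to -0.12, with 1275 genes higher and 1652 lower, so the excess of increases turned round under it.

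The largest increase was that of NTL8 (AT2G27300), which encodes a membrane-bound NAC transcription factor known for a role in germination under salt. NTL8 had 11.83, 11.85, 11.96 and 11.74 at 7 h, against 4.17, 4.17, 4.33 and 3.82 at 3 h. Its difference was 7.72 ± 0.23, and all 4 arrays at 7 h, replicate 3 included, lay together. PROT1 (AT2G39890), a proline transporter gene, had 9.80, 9.57, 9.24 and 9.85 at 7 h, against 3.89, 4.18, 4.09 and 3.45 at 3 h. ERD6 (AT1G08930), a sugar transporter gene of the dehydration response, had 8.96, 9.07, 7.74 and 9.14 at 7 h, against 3.33, 4.13, 3.75 and 4.14 at 3 h. In both genes the mean at 3 h was near background, and in ERD6 replicate 3 at 7 h lay lower than the rest. The other genes among the 15 largest increases included RD19 (AT4G39090), a cysteine proteinase gene, with a difference of 4.54 ± 0.17, and 2 loci that carry no symbol, AT1G75388 with 5.54 ± 0.20 and AT3G48140 with 5.30 ± 0.38. The remaining increases belong to gene lists described below.

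Among the 15 largest decreases, 10 were loci that carry no symbol in the reference table. AT5G39520 had 3.66, 3.42, 3.85 and 3.59 at 7 h, against 9.32, 8.43, 9.07 and 9.98 at 3 h, the largest decrease with a difference of -5.57 ± 0.16. AT2G38820 had 4.98, 5.92, 6.28 and 5.62 at 7 h, against 10.86, 11.03, 11.30 and 11.32 at 3 h. AT2G42560 had 7.21, 7.30, 7.22 and 7.02 at 7 h, against 12.29, 11.27, 12.26 and 12.40 at 3 h. The groups in each of these 3 loci were several units apart, and AT5G39520 ended near background. SIS (AT5G02020), a salt-induced gene, fell by 5.31 on the log2 scale and ABCI21 (AT5G44110), an ABC transporter family gene, by 4.65. GASA2, NRT1.8 and HSFA9, also in this set, are described with their lists.

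**Figure D2:**
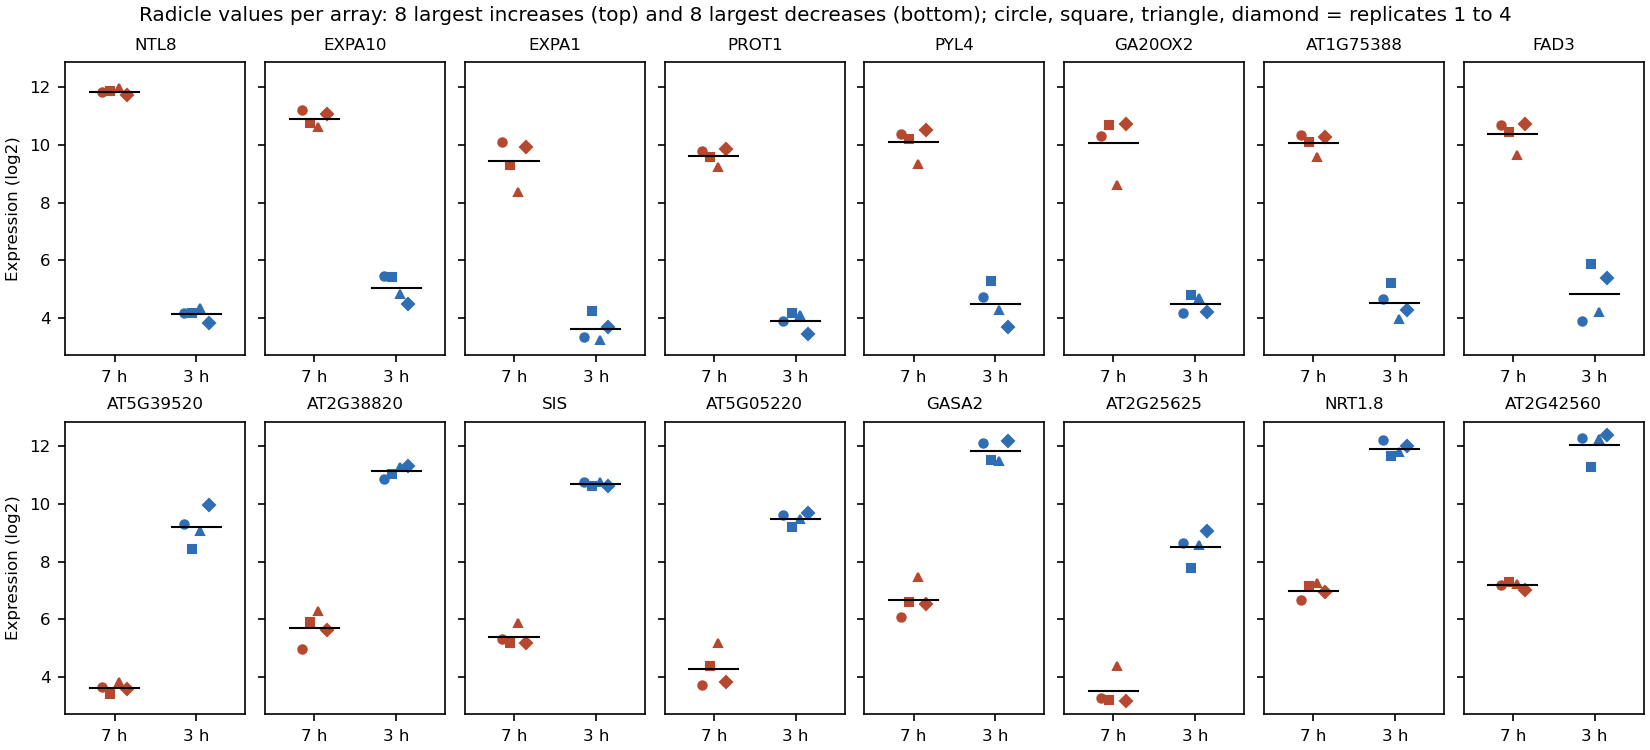
Expression (log2) in each RAD array for the 8 genes with the largest increase (top) and the 8 with the largest decrease (bottom), with 7 h left (red) and 3 h right (blue), symbols for replicates 1 to 4 and lines for the means of 4 arrays. The groups do not overlap in any panel, and replicate 3 at 7 h (triangle) is the 7 h array nearest to 3 h in all panels but NTL8 and AT2G42560, as in GA20OX2 with 8.62.

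Of 14 measured genes of gibberellin synthesis, 5 rose and 0 fell, with a median of 0.29, against 7.25% higher and 6.54% lower over all loci. Without replicate 3 at 7 h, 5 were called higher and 1, GA2, lower. The 5 that rose act in the last steps. The 20-oxidases make the precursors of active gibberellins, and GA20OX2 (AT5G51810) had 10.29, 10.67, 8.62 and 10.71 at 7 h, against 4.17, 4.79, 4.70 and 4.22 at 3 h. GA20OX1 (AT4G25420) rose by 3.64 ± 0.21 and GA20OX3 (AT5G07200) by 3.58 ± 0.24. GA20OX4 (AT1G60980) and GA20OX5 (AT1G44090) were near background at both times and differed by -0.33 and -0.21 without a call. The 3-oxidases make the active hormone. GA3OX2 (AT1G80340) had 7.89, 7.56, 6.28 and 7.66 at 7 h, against 4.20, 4.74, 4.54 and 4.30 at 3 h, and GA3OX1 (AT1G15550) rose by 2.40 ± 0.23. The early genes GA1 (AT4G02780), a copalyl diphosphate synthase gene, and GA2 (AT1G79460), a kaurene synthase gene, differed by 0.98 and -0.98 and were not called. GA2 was called lower under 8 alternatives, with values down to -1.11, and GA1 higher under 4, with values up to 1.12. Of 7 measured 2-oxidases, which inactivate gibberellins, 0 were called, with differences from -0.20 to 0.29.

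The DELLA repressor genes rose as well. RGA (AT2G01570) had 9.63, 9.80, 9.35 and 9.82 at 7 h, against 6.65, 6.64, 6.90 and 6.39 at 3 h. RGL2 (AT3G03450), the DELLA gene best known for restraining germination, had 10.44, 10.49, 10.33 and 10.28 at 7 h, against 8.18, 8.69, 8.37 and 8.04 at 3 h. Neither gene had overlapping groups. GAI (AT1G14920) rose by 1.50 ± 0.12, and RGL1 (AT1G66350) and RGL3 (AT5G17490), which were named after their values were seen, rose by 1.17 ± 0.18 and 1.19 ± 0.14. RGL1 had 3.59 in replicate 3 at 7 h, against 3.58 as its highest value at 3 h. The receptor gene GID1C (AT5G27320) fell by 1.08 on the log2 scale, a call lost at -0.94 without replicate 4 at 3 h. GID1A (AT3G05120), with 8.78, 8.74, 8.36 and 8.85 at 7 h, against 9.95, 9.52, 9.62 and 9.60 at 3 h, differed by -0.99 ± 0.14 (adjusted p from limma 7.96e-10) and missed the fold minimum. It was called lower under 8 alternatives, at -1.01 to -1.10. GID1B (AT3G63010) stayed near background at both times, with means of 3.98 at 7 h and 3.51 at 3 h. PIF1 (AT2G20180), a light-regulated repressor of germination, rose by 1.88 ± 0.17. GASA2 (AT4G09610), a seed gene of a gibberellin-regulated peptide family, had 6.09, 6.60, 7.46 and 6.55 at 7 h, against 12.12, 11.54, 11.50 and 12.20 at 3 h. In the whole list for gibberellin signalling, 8 of 19 measured genes rose and 2 fell, with a median of 0.46. Over all loci 7.25% rose and 6.54% fell.

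Abscisic acid genes changed in both directions. CYP707A2 (AT2G29090), the main gene for breaking down this hormone in imbibed seeds, had 11.18, 11.63, 12.09 and 11.42 at 7 h, against 9.49, 9.83, 9.94 and 9.23 at 3 h. The synthesis genes ABA1 (AT5G67030), a zeaxanthin epoxidase gene, and NCED5 (AT1G30100), a dioxygenase gene, fell by 2.30 and 1.74 on the log2 scale. These 3 were the only called genes among the 13 measured for synthesis and breakdown, 1 upward and 2 downward. Of the 26 measured genes of signalling and dormancy, 4 rose and 9 fell, with a median of -0.41. Beside both counts, the shares over all loci were 7.25% higher and 6.54% lower.

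ABI5 (AT2G36270), a bZIP factor that holds back germination, had 7.74, 7.46, 7.51 and 7.74 at 7 h, against 10.71, 9.84, 10.19 and 10.29 at 3 h. AFP3 (AT3G29575), which encodes a protein of the family that binds ABI5, fell by 3.37 on the log2 scale, the related bZIP gene EEL (AT2G41070) by 2.74, and the phosphatase gene ABI2 (AT5G57050) by 2.47. ABI4 (AT2G40220), an AP2 factor gene, went against these: it had 10.10, 9.56, 9.51 and 9.36 at 7 h, against 7.03, 7.42, 7.15 and 6.48 at 3 h. The kinase gene OST1 (AT4G33950) rose by 1.45 ± 0.22. ABI3 (AT3G24650), a master regulator of seed maturation, had 9.05, 9.05, 8.36 and 9.06 at 7 h, against 7.88, 7.79, 8.01 and 7.73 at 3 h, a difference of 1.03 ± 0.15. Its groups did not overlap, but the difference was 0.97 without replicate 1, 2 or 4 at 7 h, 0.99 without replicate 4 at 3 h and 0.91 with the added scaling, under the fold minimum. DOG1 (AT5G45830), the major dormancy gene, had 6.22, 6.34, 6.66 and 6.75 at 7 h, against 7.09, 6.83, 6.74 and 6.86 at 3 h, and its difference of -0.39 ± 0.17 did not pass (adjusted p from limma 0.0593). SOM (AT1G03790), a repressor of germination in the dark, differed by -0.97 ± 0.20 and MFT (AT1G18100), a regulator of abscisic acid response in seeds, by -0.71 ± 0.26, and neither was called. SOM was called lower under 5 alternatives, at -1.01 to -1.08.

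Receptor genes of abscisic acid changed in both directions. Among 9 measured PYR/PYL receptor genes, a list chosen after this comparison was seen, 5 rose and 2 fell, with a median of 1.57. The shares over all loci were 7.25% higher and 6.54% lower. PYL4 (AT2G38310) had 10.38, 10.20, 9.35 and 10.50 at 7 h, against 4.73, 5.29, 4.29 and 3.68 at 3 h. PYL8 (AT5G53160) rose by 2.36 ± 0.16, PYL2 (AT2G26040) by 1.93 and PYL1 (AT5G46790) by 1.84. In contrast PYL7 (AT4G01026) had 5.53, 5.42, 5.63 and 5.08 at 7 h, against 7.81, 7.95, 8.17 and 8.10 at 3 h, and PYL9 (AT1G01360) fell by 1.41 on the log2 scale. PYR1 (AT4G17870), counted in the signalling list, rose by 1.70 ± 0.11.

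Of 22 measured expansins, 5 rose and 1 fell, with a median of 0.11, against 7.25% higher and 6.54% lower over all loci. Of the others, 14 of the 16 without a call had a mean difference under 0.5 in size. EXPA10 (AT1G26770) had 11.21, 10.76, 10.63 and 11.06 at 7 h, against 5.45, 5.42, 4.84 and 4.50 at 3 h. EXPA1 (AT1G69530) had 10.11, 9.30, 8.37 and 9.94 at 7 h, against 3.34, 4.23, 3.22 and 3.70 at 3 h. EXPA8 (AT2G40610) had 9.61, 9.22, 7.95 and 9.97 at 7 h, against 4.33, 4.71, 4.10 and 3.86 at 3 h. The mean of EXPA1 at 3 h was near background, and no group overlapped in these 3 genes. EXPA3 (AT2G37640) rose by 3.05 ± 0.27. EXPA13 (AT3G03220) was the member that fell, by 1.02 on the log2 scale, a call lost without replicate 2 or 4 at 7 h or replicate 4 at 3 h, with -0.93 as the smallest change. EXPA2 (AT5G05290), the expansin of the endosperm, had means of 4.30 at 7 h and 4.61 at 3 h and was not called.

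Of 24 measured XTH genes, 7 rose and 1 fell, with a median of 0.01, against 7.25% higher and 6.54% lower over all loci. XTH19 (AT4G30290) had 9.55, 9.05, 6.42 and 9.52 at 7 h, against 4.24, 3.87, 3.53 and 3.39 at 3 h. Its replicate 3 stood 2.63 below the next array, and the difference of 4.88 ± 0.46 was 5.61 without it. XTH5 (AT5G13870) rose by 2.93 ± 0.23, XTH22 (AT5G57560), the touch gene TCH4, by 2.70 ± 0.43 and XTH16 (AT3G23730) by 2.51 ± 0.28. XTH25 (AT5G57550) was the exception, with 9.04, 9.09, 8.75 and 8.76 at 7 h, against 13.34, 12.75, 12.84 and 12.93 at 3 h. The 5 measured cellulose synthases of the primary wall had no call and differed by -0.51 to 0.77. TUA6 (AT4G14960), an alpha-tubulin gene, rose by 3.62 ± 0.34. Of 15 tubulin and actin genes 2 rose and 1 fell, the latter near the 6.54% lower over all loci.

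Genes of lipid formation at the surface and in membranes rose in a few members. FAD3 (AT2G29980), the endoplasmic reticulum desaturase that makes linolenic acid, had 10.69, 10.43, 9.66 and 10.72 at 7 h, against 3.91, 5.86, 4.21 and 5.40 at 3 h. KCS10 (AT2G26250), a ketoacyl-CoA synthase gene also called FIDDLEHEAD, had 9.88, 10.10, 9.56 and 10.19 at 7 h, against 5.20, 5.43, 4.75 and 5.24 at 3 h. The transporter genes ABCG11 (AT1G17840) and ABCG12 (AT1G51500), which export cuticle lipids, rose by 3.89 ± 0.17 and 2.49 ± 0.13. Of 12 measured genes of fatty acid synthesis and desaturation 4 rose and 0 fell (median 0.42), against 7.25% higher and 6.54% lower over all loci. Some of these rises lost the call under alternatives, at 0.93 to 0.99. Of 23 genes of the cuticle, a list chosen after this comparison was seen, 5 rose and 1 fell (median 0.03). That fall lost its call without replicate 1 or 4 at 7 h or replicate 1 or 4 at 3 h, with -0.84 as the smallest change. Storage oil breakdown, measured by 18 genes, had 0 calls (median 0.26), with differences from -0.58 to 0.98. Without replicate 3 at 7 h, 1 of these genes was called higher. ICL (AT3G21720), the isocitrate lyase of the glyoxylate cycle, had means of 13.99 at 7 h and 13.45 at 3 h.

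**Figure D3:**
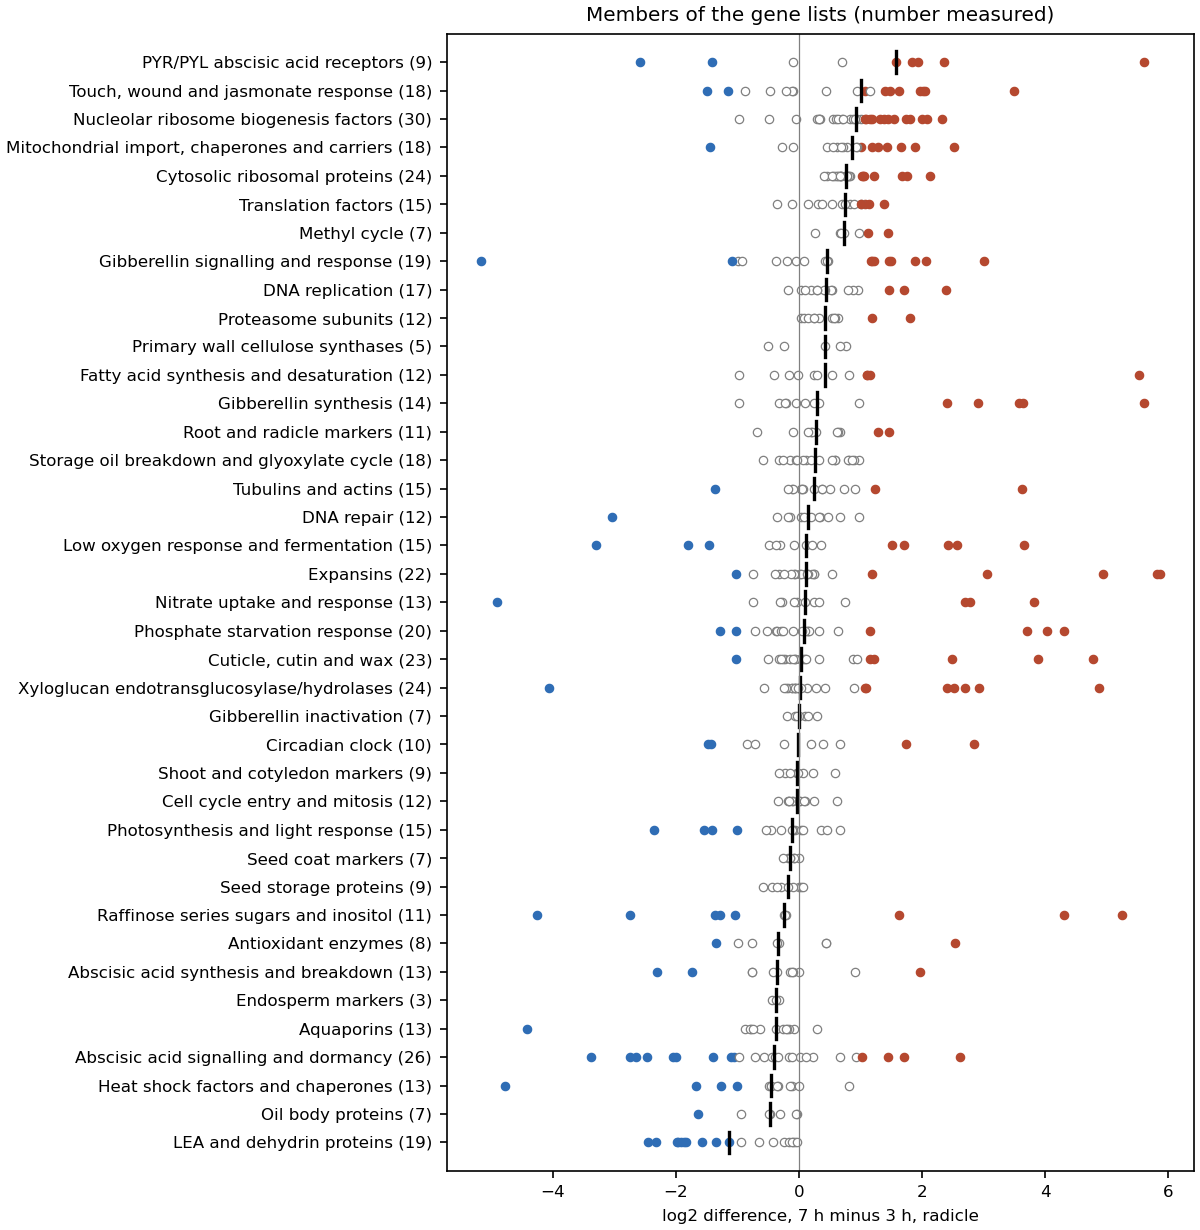
Difference between 7 h and 3 h (log2) in RAD for each measured member of 39 gene lists, ordered by the list's median (black line), with called increases in red, called decreases in blue and other members as open circles; the number measured stands after each name. LEA proteins lie lowest, with a median of -1.14, and the nucleolar factors have a median of 0.93.

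Of 19 measured late embryogenesis abundant (LEA) and dehydrin genes, whose proteins protect drying cells, 10 fell and 0 rose, with a median of -1.14. Over all loci 6.54% fell and 7.25% rose. LTI30 (AT3G50970) had 10.05, 10.56, 11.06 and 10.22 at 7 h, against 12.98, 12.74, 12.93 and 13.05 at 3 h. EM6 (AT2G40170) had 12.43, 12.48, 12.73 and 12.21 at 7 h, against 14.16, 14.05, 13.91 and 14.04 at 3 h, a difference of -1.58 ± 0.29. EM1 (AT3G51810) differed by -0.65 ± 0.26 and was not called. RAB18 (AT5G66400), a dehydrin gene, had means of 14.04 at 7 h and 14.29 at 3 h, close to the highest array value of 14.62, where a difference can be understated. Of 9 measured seed storage protein genes 0 were called. The cruciferin gene CRA1 (AT5G44120) had 14.41, 14.48, 14.21 and 14.52 at 7 h, against 14.43, 14.40, 14.36 and 14.42 at 3 h, also near the top of the scale. The oleosin gene OLEO3 (AT5G51210) fell by 1.64 on the log2 scale, the 1 call among 7 genes of oil body proteins.

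HSFA9 (AT5G54070), a transcription factor of seed maturation that activates heat shock genes, had 4.93, 5.34, 5.43 and 5.02 at 7 h, against 10.02, 9.50, 9.83 and 10.51 at 3 h. Of 13 measured heat shock factors and chaperones 4 fell and 0 rose, with a median of -0.46, against 6.54% lower over all loci, and HSP17.4 (AT3G46230), a small heat shock protein gene, differed by -0.12. A fall in this list lost its call without some single arrays, with -0.74 as the smallest change. HSP101 (AT1G74310), the disaggregating chaperone, had 9.56, 9.84, 11.23 and 9.87 at 7 h, against 11.57, 11.14, 11.45 and 11.41 at 3 h, so replicate 3 at 7 h lay among the 3 h arrays. BETA-TIP (AT1G17810), a seed tonoplast aquaporin gene, fell by 4.41 on the log2 scale, the 1 call among 13 aquaporins, near the 6.54% lower over all loci, whereas TIP3;1 (AT1G73190) differed by -0.88 ± 0.36 without a call. PER1 (AT1G48130), a seed peroxiredoxin gene, fell by 1.35 on the log2 scale, and PARP3 (AT5G22470), a poly(ADP-ribose) polymerase gene of seeds, by 3.03. PARP3 was the 1 call among 12 measured DNA repair genes (median 0.14), near the 6.54% lower over all loci.

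Genes of the raffinose sugars, which accumulate in drying seeds, changed in both directions. Of 11 measured genes of raffinose series sugars and inositol 5 fell and 3 rose, with a median of -0.25. Over all loci 6.54% fell and 7.25% rose. GolS2 (AT1G56600), a galactinol synthase gene, had 5.41, 6.31, 7.36 and 6.47 at 7 h, against 10.68, 10.19, 10.71 and 10.97 at 3 h, and the inositol phosphate synthase gene MIPS2 (AT2G22240) fell by 2.74 on the log2 scale. The 3 that rose carry names of the raffinose synthase or alkaline galactosidase family, whose members can make or break down these sugars. DIN10 (AT5G20250) had 10.41, 9.40, 7.24 and 9.66 at 7 h, against 3.56, 4.52, 4.42 and 3.24 at 3 h. Its difference of 5.24 was 4.83 to 5.89 when single arrays were left out, highest without replicate 3 at 7 h. SIP1 (AT1G55740) rose by 4.30 ± 0.17 and SIP2 (AT3G57520) by 1.63.

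Genes for making ribosomes and proteins rose in part, mostly by small amounts. Of 30 measured nucleolar factors of ribosome biogenesis 13 rose and 0 fell, with a median of 0.93, against 7.25% higher and 6.54% lower over all loci. Without replicate 3 at 7 h, 15 were called higher and 1 lower. FIB2 (AT4G25630), a fibrillarin gene, had 11.67, 11.60, 11.51 and 12.04 at 7 h, against 8.91, 9.62, 9.54 and 9.45 at 3 h. RRP5 (AT3G11964), a ribosomal RNA processing factor gene, rose by 2.08 ± 0.16, PUM24 (AT3G16810) by 1.99 ± 0.14, and NRPA2 (AT1G29940), a subunit of RNA polymerase I, by 1.81 ± 0.14. All 24 measured cytosolic ribosomal proteins had positive differences, from 0.40 to 2.13 with a median of 0.76, of which 7 passed the fold minimum, led by RPSAb (AT3G04770) with 2.13 ± 0.16. Translation factors rose in 4 of 15 measured genes and fell in 0 (median 0.74), and EIF4A-2 (AT1G54270), an initiation helicase gene, rose by 1.38 ± 0.07. Some of the rises among translation factors lost the call under alternatives, at 0.89 to 0.99. Of 12 measured proteasome subunits 2 rose, against 7.25% over all loci, with a list median of 0.43, or 0.32 under the added scaling, led by RPT4A (AT5G43010) with 1.81 ± 0.12.

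Some mitochondrial genes rose. Of 18 measured genes of mitochondrial import, chaperones and carriers 7 rose and 1 fell, with a median of 0.86. The shares over all loci were 7.25% higher and 6.54% lower. The chaperone gene mtHsc70-1 (AT4G37910) had 11.59, 11.25, 11.21 and 11.53 at 7 h, against 8.88, 9.03, 9.06 and 8.51 at 3 h, and the nucleotide carrier gene AAC2 (AT5G13490) rose by 1.88 ± 0.15. AOX2 (AT5G64210), the alternative oxidase gene of seeds, fell by 1.45 on the log2 scale. In the methyl cycle, which supplies methyl groups, 2 of 7 measured genes rose, against 7.25% over all loci. MTO3 (AT3G17390), an S-adenosylmethionine synthetase gene, led with 1.44 ± 0.15. The other rise in this list lost its call at 0.97 without replicate 1 at 3 h. APX1 (AT1G07890), the cytosolic ascorbate peroxidase gene, had 7.45, 7.60, 7.65 and 7.94 at 7 h, against 4.97, 5.50, 5.03 and 4.99 at 3 h. Of 8 measured antioxidant genes APX1 alone rose and 1 fell, with a median of -0.34. The shares over all loci were 7.25% and 6.54%.

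Of 17 measured DNA replication genes 3 rose and 0 fell, with a median of 0.44, against 7.25% higher over all loci, and their mean level per array was 4.77 to 5.14 at 7 h, against 4.20 to 4.49 at 3 h. TSO2 (AT3G27060), the small subunit of ribonucleotide reductase, rose by 2.39 ± 0.15, PCNA2 (AT2G29570), a replication clamp gene, by 1.71 ± 0.19 and RNR1 (AT2G21790), the large subunit, by 1.46 ± 0.14. The helicase subunit gene MCM4 (AT2G16440) had 4.49, 4.70, 4.57 and 5.19 at 7 h, against 3.69, 4.75, 3.57 and 3.43 at 3 h, and was not called with its difference of 0.88. Without replicate 2 at 3 h it was called at 1.17, and with array weights at 1.06. Of 12 genes of cell cycle entry and mitosis 0 were called (median -0.04), and the cyclin gene CYCB1;1 (AT4G37490) had means of 4.26 at 7 h and 4.16 at 3 h.

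Nutrient genes changed in both directions, in 2 lists chosen after this comparison was seen. Over all loci 7.25% were higher and 6.54% lower. Of 13 measured nitrate genes 3 rose and 1 fell, with a median of 0.09, and 7 differences were positive and 6 negative. The nitrate reductase gene NIA1 (AT1G77760) had 10.11, 9.50, 10.35 and 10.01 at 7 h, against 5.71, 6.45, 6.52 and 6.02 at 3 h. NIA2 (AT1G37130) rose by 2.69 ± 0.25 and the transporter gene NRT1.1 (AT1G12110) by 2.77 ± 0.18, whereas NRT1.8 (AT4G21680), a nitrate transporter gene of vascular tissue, had 6.66, 7.16, 7.25 and 6.95 at 7 h, against 12.21, 11.65, 11.80 and 12.02 at 3 h. Of 20 measured genes of the phosphate starvation response 4 rose and 2 fell, with a median of 0.08, and 11 differences were positive and 9 negative. One of the falls lost its call at -0.95 without replicate 1 at 7 h and at -0.96 without replicate 3 at 3 h. The acid phosphatase gene PAP17 (AT3G17790) had 10.45, 9.99, 7.12 and 9.95 at 7 h, against 5.53, 5.57, 5.19 and 5.11 at 3 h, and PAP10 (AT2G16430) rose by 4.31 ± 0.24. G3Pp1 (AT3G47420), a glycerol-3-phosphate permease gene, had 9.51, 8.51, 4.71 and 7.95 at 7 h, against 3.55, 4.08, 4.00 and 4.22 at 3 h. In PAP17 and G3Pp1 replicate 3 at 7 h lay far below the other arrays of its group. Without it the difference was 4.79 for PAP17, against 4.03 with it, and 4.69 for G3Pp1, against 3.71, which was 3.09 without replicate 1 at 7 h. The regulator genes PHR1 (AT4G28610) and PHO2 (AT2G33770) differed by -0.37 and -0.52 without a call.

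Genes of low oxygen, of touch and wounding and of the clock also moved. For all counts in this paragraph, the shares over all loci were 7.25% higher and 6.54% lower. In the low oxygen list, chosen after this comparison was seen, 5 of 15 measured genes rose and 3 fell, with a median of 0.11. The haemoglobin genes HB2 (AT3G10520) and HB1 (AT2G16060) rose by 3.66 ± 0.24 and 2.56 ± 0.23, and the pyruvate decarboxylase gene PDC1 (AT4G33070) by 2.42 ± 0.30, while PDC2 (AT5G54960) fell by 1.46 on the log2 scale. LBD41 (AT3G02550), a standard marker of low oxygen, had 7.63, 7.83, 8.55 and 8.23 at 7 h, against 11.85, 11.50, 11.60 and 10.48 at 3 h. Of 18 genes of touch, wounding and jasmonate 8 rose and 2 fell, with a median of 1.00. WRKY40 (AT1G80840), a WRKY factor gene, had 7.27, 8.14, 7.25 and 7.36 at 7 h, against 3.56, 5.15, 3.45 and 3.88 at 3 h, and the calmodulin-like gene CML38 (AT1G76650) rose by 1.97 ± 0.31. Of 10 measured clock genes 2 rose and 2 fell, with a median of -0.02. CCA1 (AT2G46830) and LHY (AT1G01060) rose by 2.84 ± 0.16 and 1.74 ± 0.18. TOC1 (AT5G61380) and RVE8 (AT3G09600) fell by 1.43 and 1.47 on the log2 scale. CCA1 at 3 h, with a mean of 3.18, and RVE8 at 7 h, with 3.51 as its highest value, were near background. Of 15 photosynthesis and light genes 4 fell and 0 rose, with a median of -0.11, led by the antenna gene LHCB4.1 (AT5G01530), which fell by 2.36 on the log2 scale. A fall in this list lost its call without some single arrays, with -0.83 as the smallest change.

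The markers were read to check what the samples held. Of 11 measured root and radicle markers 2 rose, against 7.25% over all loci. PIN2 (AT5G57090), an auxin efflux carrier gene, rose by 1.46 ± 0.19 and MYB66 (AT5G14750), the WEREWOLF gene of root epidermis, by 1.29 ± 0.19. MYB66 had 4.56, 4.87, 3.18 and 4.52 at 7 h, against 2.60, 2.96, 2.95 and 3.43 at 3 h, so its groups overlapped through replicate 3. Its values at 3 h and in replicate 3 at 7 h were near background, so its rise has no exact size. The root stem cell factor PLT2 (AT1G51190) had means of 6.01 at 7 h and 5.38 at 3 h in RAD, against 3.27 and 3.62 in MCE at the same times. Of the 3 measured endosperm markers 0 were called, and their mean level per array was 5.33 to 5.63 at 7 h, against 5.63 to 6.18 at 3 h. The endosperm gene EPR1 (AT2G27380) had means of 7.20 at 7 h and 7.64 at 3 h in RAD, against 13.86 and 13.79 in MCE. The 7 seed coat markers had mean levels of 3.30 to 3.40 at 7 h, against 3.34 to 3.62 at 3 h, and the 9 shoot and cotyledon markers 3.64 to 3.88 at 7 h, against 3.73 to 3.78 at 3 h, with 0 calls in both lists. The shoot and cotyledon marker with the largest difference stood above background, with means of 6.77 at 7 h and 6.18 at 3 h. Its groups did not overlap, but its difference of 0.58 missed the fold minimum.

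The same 4 hours were compared with those in MCE by the interaction, the RAD change minus the MCE change, fitted in the same model. MCE at 7 h replicate 2 is also described as redone. The interaction was called for 865 genes, 4.06% of those measured, with 470 positive (2.21%) and 395 negative (1.85%). EXPA10 had the largest positive value, 4.67 ± 0.29: its means were 10.91 at 7 h and 5.05 at 3 h in RAD, against 6.96 and 5.78 in MCE. FAD3 followed with 3.99 ± 0.45 and AT1G75388 with 3.86 ± 0.29. AT2G24560, BXL2 (AT1G02640), a beta-xylosidase gene, and CRF3 (AT5G53290), a cytokinin response factor gene, rose in RAD by 3.68 ± 0.21, 3.45 ± 0.30 and 3.48 ± 0.18, and differed in MCE by -0.02, -0.16 and -0.02. AT2G24560 and BXL2 were near background in RAD at 3 h, with means of 3.27 and 3.94. In MCE, AT2G24560 had means of 3.37 at 7 h and 3.39 at 3 h and CRF3 3.54 and 3.56, near background at both times. BXL2 had 8.75, 7.68, 5.31 and 7.85 at 7 h in RAD. Its RAD difference was 3.00 to 4.15 when single arrays were left out, highest without replicate 3 at 7 h. PAP17 and CML38 completed the 8 largest positive values with 3.55 ± 0.43 and 3.38 ± 0.44, and the MCE difference of CML38 was -1.40.

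Most genes with the largest negative values were higher at 7 h in MCE. GASA6 (AT1G74670), a gibberellin-regulated peptide gene, had 2.74, 3.02, 2.92 and 2.60 at 7 h, against 2.50, 2.82, 3.33 and 2.85 at 3 h in RAD, all at background, while its MCE means were 8.63 at 7 h and 3.76 at 3 h. Its interaction was -4.92 ± 0.57. NUDT17 (AT2G01670), a nudix hydrolase gene, had -3.75 ± 0.43, EXPA2 -3.72 ± 0.34, CYP71B2 (AT1G13080), a cytochrome P450 gene, -3.69 ± 0.26 and AT1G28580 -3.11 ± 0.29. AT2G16660 had a difference of 1.17 ± 0.28 in RAD, which was 0.97 without replicate 4 at 3 h, and of 4.59 in MCE. For AT3G15450 and AT3G16120 the differences were -4.26 and -4.03 in RAD, against -0.96 and -0.90 in MCE.

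**Figure D4:**
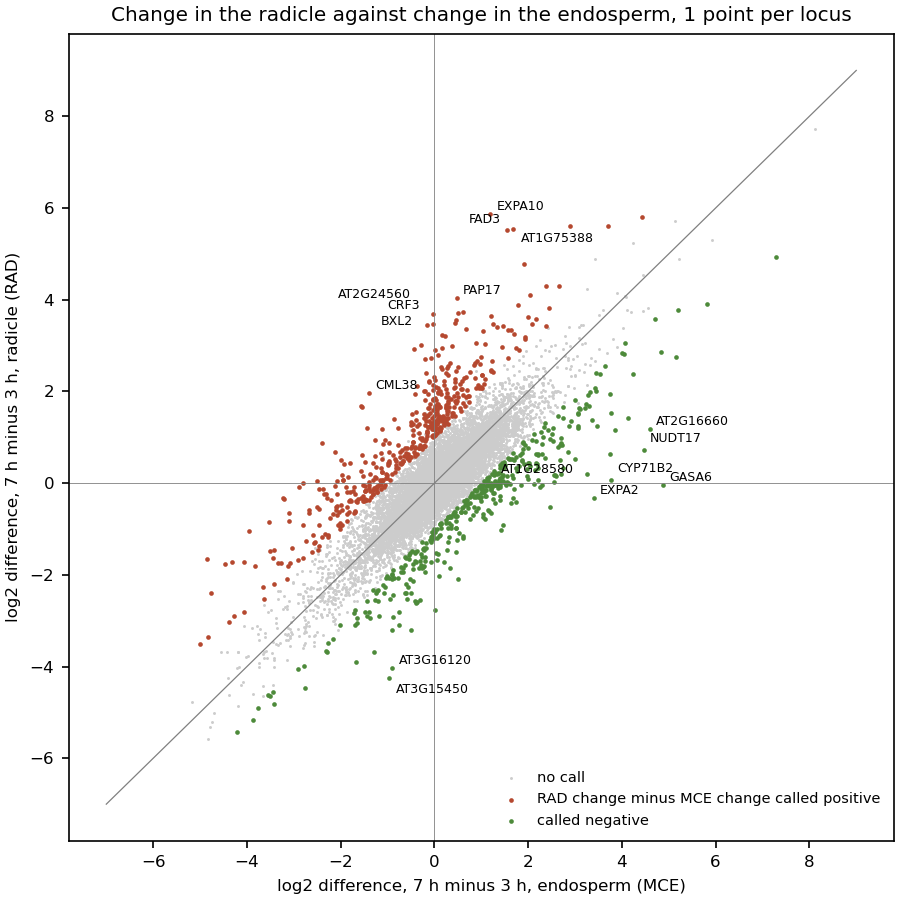
Difference between 7 h and 3 h (log2) in RAD on the vertical axis against that in MCE on the horizontal axis, with 1 point per locus, the line of equal change, and the 865 loci called for the interaction in red (positive, 470) and green (negative, 395); the 8 largest of each are named. EXPA10 lies at 5.86 in RAD and 1.19 in MCE, and GASA6 at -0.05 in RAD and 4.87 in MCE.

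Of the 14 gibberellin synthesis genes 4 had a positive and 1 a negative interaction, and of the 19 signalling genes 3 and 2, against 2.21% positive and 1.85% negative over all loci. GA3OX2 had means of 7.35 at 7 h and 4.44 at 3 h in RAD, against 4.43 and 4.41 in MCE, an interaction of 2.88 ± 0.26, and for GA3OX1 it was 2.56 ± 0.33. GA20OX1 and GA20OX2 had 2.43 ± 0.30 and 1.89 ± 0.45, whereas GA20OX3 had -1.14 ± 0.34 with a difference of 4.71 in MCE. RGL3 had 2.30 ± 0.20, from means of 8.77 at 7 h and 7.58 at 3 h in RAD, against 4.80 and 5.91 in MCE. For RGA and RGL2 the interaction was 0.43 ± 0.20 and 0.63 ± 0.20 and not called.

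CYP707A2 rose by 1.96 ± 0.27 in RAD and differed by 0.27 in MCE, where it already stood at 11.55 at 3 h, with an interaction of 1.69 ± 0.38. For ABI4 the interaction was 1.74 ± 0.23 and for PYL4 2.71 ± 0.33. DOG1 had means of 6.49 at 7 h and 6.88 at 3 h in RAD, against 6.52 and 8.01 in MCE, with an interaction of 1.11 ± 0.24. EM1 had 2.02 ± 0.36, with a difference of -2.67 in MCE. In the touch, wounding and jasmonate list 6 of 18 genes had a positive and 0 a negative interaction, WRKY40 among them with 3.06 ± 0.69. In the XTH list 4 of 24 were positive and 1 negative, led by XTH5 with 3.36 ± 0.33. For both lists the shares over all loci were 2.21% positive and 1.85% negative. The median change of the nucleolar factors was 0.93 in RAD, against 0.89 in MCE, and that of the ribosomal proteins 0.76 in RAD, against 1.09 in MCE. The interaction was called for 0 genes in either list, against 4.06% of all loci.

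Levels at the neighbouring times place this interval and are given as levels only. Comparisons with them share arrays with the one above, and their tests are not reported here. Some genes stood highest at 7 h of the 4 times. NIA1 had mean levels of 5.84 ± 0.37, 6.17 ± 0.38, 9.99 ± 0.36 and 6.85 ± 0.58 at 1, 3, 7 and 12 h in RAD (SD, n = 4 each). CYP707A2 had 8.66 ± 0.32, 9.62 ± 0.32, 11.58 ± 0.38 and 8.82 ± 0.25 at these times, and GA20OX2 had 4.14 ± 0.43, 4.47 ± 0.32, 10.08 ± 0.99 and 8.61 ± 0.22. LBD41 and HRA1 (AT3G10040), a repressor of the low oxygen response, stood highest at 3 h instead. LBD41 had 6.80 ± 0.18, 11.36 ± 0.60, 8.06 ± 0.41 and 7.67 ± 0.29 at the 4 times, and HRA1 had 4.93 ± 0.19, 8.91 ± 0.78, 7.11 ± 0.07 and 7.35 ± 0.18. Wall genes stood higher still at 12 h. EXPA1 had 4.57 ± 1.91, 3.62 ± 0.46, 9.43 ± 0.79 and 12.63 ± 0.06, and XTH19 had 4.89 ± 2.45, 3.76 ± 0.38, 8.63 ± 1.49 and 12.26 ± 0.22, with a wide spread at 1 h in both. PCNA1 (AT1G07370), a replication clamp gene, had 4.12 ± 0.44, 3.87 ± 0.32, 4.84 ± 0.31 and 7.87 ± 0.35. Among the stored transcripts CRA1 had 14.42 ± 0.08, 14.40 ± 0.03, 14.40 ± 0.14 and 12.98 ± 0.40, and EM6 had 14.08 ± 0.12, 14.04 ± 0.10, 12.46 ± 0.21 and 9.75 ± 0.33.

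**Figure D5:**
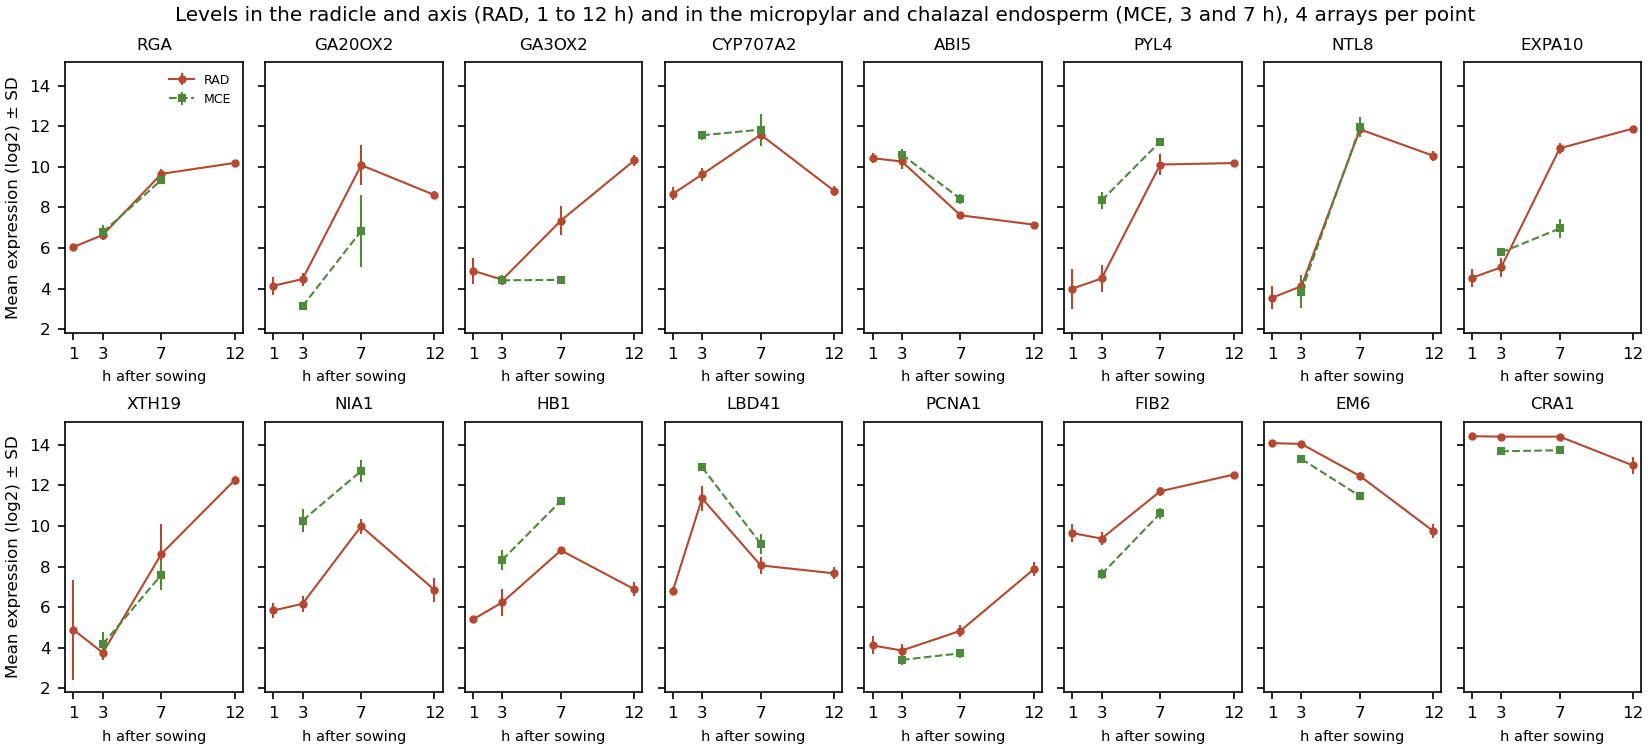
Mean expression (log2, with SD, 4 arrays per point) of 16 genes in RAD at 1, 3, 7 and 12 h after sowing (red circles) and in MCE at 3 and 7 h (green squares). NIA1, CYP707A2 and HB1 stand highest at 7 h, LBD41 at 3 h, and PCNA1 and XTH19 at 12 h.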

How the data were processed

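The deposited log2 expression values came as 1 table, with 1 column for each array and 1 row for each locus. RMA and the package affy made them, per the submitters' processing notes, with versions not given. RMA subtracts background, normalizes the arrays together and summarises probes, so it can compress very low and very high levels. Per the labels' protocols, 100 ng of RNA was amplified with an Affymetrix 3' IVT-Express kit and labelled with biotin. No positions are printed, because neither the probe definition nor the genome build is named in the sources used here. Symbols came from the RefSeq table (TAIR10.1), which held 21205 of 21313 loci.

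Arrays were grouped by title. The labels do not say whether replicates came from separate seed batches, so a p-value here reflects only how much these samples varied, and the number of arrays limits the precision. limma 3.58.1 in R 4.3.3 fitted 1 mean for each of 28 groups over all arrays, with 83 residual degrees of freedom and a prior worth 8.02, so that standard errors pool each gene's spread over all groups. Tests were two-sided and adjusted over all 21313 loci for each comparison. The procedure was tested on simulated data.

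The members and lists were chosen with earlier results of these data known, and 5 of the 39 lists (601 loci, 554 measured) were added after this comparison was seen. Genes were named by a rule, which picks 164 genes, not all of them printed: the 15 largest increases and decreases with groups that do not overlap, in each list the 4 largest called changes each way (uncalled members may be given with values), the 8 largest interactions each way, and 24 germination genes. RGL1 and RGL3 were added. The alternatives were a filter on dim loci, a second quantile normalization, an added scaling (arrays moved so that the trimmed mean of the more abundant loci agreed), an intensity trend in the prior, weights for arrays, a block for the replicate number, a fit of the compared groups alone, no fold minimum, and fits that left out redone arrays, arrays whose labels differ, or each array in turn.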

Additional observations from a re-analysis of the deposited data

Results flagged for a closer look

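Among the genes named above, 19 of 278 groups of 4 arrays held 1 array far from the others by Dixon's test, which chance alone gives in about 5% of groups. Of these, 10 were RAD 7 h replicate 3 and 5 RAD 3 h replicate 2. Over all 21313 loci, replicate 3 at 7 h stood apart from its group in 3.62% and replicate 2 at 3 h in 1.97%. Replicate 3 at 7 h was low for ERD6 at 7.74 (next array 8.96), NRT1.1 at 6.56 (next array 7.79), PAP10 at 8.90 (next array 9.96), AT3G15450 at 4.17 (next array 4.99) and PAP17 at 7.12 (next array 9.95). It was also low for ABI3 at 8.36 (next array 9.05), XTH19 at 6.42 (next array 9.05), XTH5 at 6.48 (next array 7.32), PYL8 at 6.96 (next array 7.32) and RGL3 at 8.37 (next array 8.85). Replicate 2 at 3 h was low for PER1 at 13.52 (next array 13.75) and AT2G42560 at 11.27 (next array 12.26). It was high for APX1 at 5.50 (next array 5.03), AT3G48140 at 5.83 (next array 4.39) and XTH22 at 8.19 (next array 6.55). The other arrays were 7 h replicate 2, high for WRKY40 at 8.14 (next array 7.36), 7 h replicate 4, high for RVE8 at 3.51 (next array 3.08), 3 h replicate 4, high for ABCI21 at 8.72 (next array 8.27) and 7 h replicate 2, low for GA1 at 4.37 (next array 4.53).

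The change in RAD minus the change in MCE was called for 60 of the 139 genes named above, by limma's test of the difference itself. Many of these genes were chosen for large changes or large interactions, so this share is set by that choice. The largest positive values were 4.67 for EXPA10, 3.99 for FAD3, 3.86 for AT1G75388, 3.70 for AT2G24560, 3.61 for BXL2, 3.55 for PAP17, 3.50 for CRF3, 3.38 for CML38 and 3.36 for XTH5. Next came 3.20 for G3Pp1, 3.06 for WRKY40, 2.89 for XTH22, 2.88 for GA3OX2, 2.86 for KCS10, 2.71 for PYL4, 2.56 for GA3OX1, 2.43 for GA20OX1 and 2.32 for ABCG12. Then followed 2.30 for RGL3, 2.24 for XTH16, 2.17 for EXPA3, 2.11 for ABCG11, 2.02 for EM1, 2.02 for HRA1, 1.92 for PAP10, 1.89 for GA20OX2 and 1.74 for ABI4. Lower in size were 1.69 for CYP707A2, 1.65 for PDC1, 1.63 for TUA6, 1.63 for SIP1, 1.47 for HSP101, 1.39 for EXPA1, 1.38 for NIA1, 1.36 for PIN2 and 1.35 for PARP3. The smallest were 1.33 for OST1, 1.32 for PYL2, 1.30 for MYB66 and 1.11 for DOG1. The largest negative values were -4.92 for GASA6, -3.75 for NUDT17, -3.72 for EXPA2, -3.69 for CYP71B2, -3.42 for AT2G16660, -3.30 for AT3G15450, -3.13 for AT3G16120, -3.11 for AT1G28580 and -2.35 for EXPA8. Next came -1.31 for GASA2, -1.20 for AT2G38820, -1.17 for RNR1, -1.15 for TSO2, -1.15 for XTH25, -1.15 for ABCI21, -1.15 for CCA1, -1.14 for NRT1.8 and -1.14 for GA20OX3. Then followed -1.12 for SOM and -1.05 for MFT.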

How the results depend on the processing

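The number of called genes, 2939, was 2854 to 3200 when single arrays were left out, with the highest value without replicate 3 at 7 h, and 2927 to 3203 under the other alternatives that kept the fold minimum. The interaction, called for 865 genes, had 851 to 944 without single arrays and 795 to 959 under the others. The 169 called members of the gene lists were 160 to 186 without single arrays and 164 to 186 otherwise. Only dropping the fold minimum moved a count by over 1.5 times, to 9292 genes for RAD and 2698 for the interaction, because smaller differences were then counted. Of 181 genes recomputed one by one, 19 crossed the threshold under at least 1 alternative, 13 of them losing a call, and 0 turned direction. Under the added scaling the median over all loci was -0.12, and the medians of the lists for expansins, XTH, cuticle, phosphate, nitrate and low oxygen genes were then at or below 0 (-0.002, -0.101, -0.082, -0.038, -0.023 and -0.005). With the replicate number as a block the counts were 2939, 871 and 169. Deviations of arrays with the same number correlated at 0.089, -0.021, 0.086 and 0.02, so the numbers were not taken to pair the arrays. The planned counts of promoter motifs were not run, as no promoter sequences were used here. Of the called genes, 287 had a mean under 4.03 at one of the times, where the signal over background limits the size of a difference.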
